A study of Mus musculus with 10 samples.

Results

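Neurofilaments are the ropes of protein that fill large axons and set their width. They are built from a light, a medium and a heavy chain, coded by Nefl, Nefm and Nefh, which assemble together with alpha-internexin (Ina) and, in peripheral neurons, with peripherin (Prph). In dorsal root ganglia (DRG), which house the cell bodies of sensory nerves, large neurons with myelinated axons are rich in neurofilament chains, while peripherin is prominent in small neurons with thin axons. The transcripts of these 5 genes, each found as 1 row by its gene name among 40481 genes in the deposited count table, are described here in mice given oxaliplatin, a platinum drug whose main lasting side effect is damage to sensory nerves.

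Total RNA of DRG from C57BL/6 mice was sequenced in 10 libraries. Of these, 5 came from mice given oxaliplatin at 10 mg/kg and 5 from mice given vehicle, and the design text gives a treatment of 8 weeks. Neither group carries a transgene or other allele in the labels, and neither the age of the mice nor the spacing of the doses is stated in the sources used here. The libraries are numbered within a group and not tied to animals in the labels, so p-values measure the spread between these libraries, which may be technical. Library totals ran from 52963470 to 60984426 counts. All 12 of 12 sensory neuron markers had enough counts to be tested, and their summed level was 16330 to 17690 CPM (counts scaled to the size of the library, with TMM factors) after oxaliplatin and 17670 to 20400 CPM after vehicle. Muscle RNA was high in oxaliplatin replicate 1 and in all vehicle libraries, fat cell RNA was high in oxaliplatin replicate 1, and axon injury transcripts were high in vehicle replicate 5. Of 18401 genes with enough counts to be tested, 234 were higher (1.27%) and 142 lower (0.772%) after oxaliplatin at an adjusted p below 0.05 (edgeR quasi-likelihood test with Benjamini-Hochberg adjustment over all genes), so that 62.2% of the calls were higher. Without a composition factor in the scaling the counts were 303 and 99 (75.4% higher).

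The transcripts of the 3 neurofilament chains fell after oxaliplatin, by 29.9% for Nefl, 33.1% for Nefm and 35.5% for Nefh, while no change passed the test for Ina or Prph. Thus 3 of the 5 genes were called lower, beside 0.772% of all genes and 1.58% of the 5249 genes whose mean was 30 CPM or more, the range in which all 5 lie. The oxaliplatin and vehicle libraries did not overlap for the 3 chains, beside 1.77% of all genes, and 3.43% of those at 30 CPM or more, that were lower without overlap. In bulk tissue, fewer neurons of a kind and less RNA per neuron cannot be told apart. Nuclear RNAs had a higher summed level in every oxaliplatin library than in any vehicle library. Their mean log2 CPM overlapped between the groups (7.919 to 8.225 after oxaliplatin and 7.695 to 7.978 after vehicle). With that mean as a covariate none of the 3 chains passed (edgeR adjusted p = 0.128, 0.195 and 0.492 for Nefl, Nefm and Nefh). Over all genes, 11 were higher and 6 lower in that fit. Nefh lost its call in 13 of 24 other fits, that one included. As a share of all counted reads, the 5 genes made up 0.605%, 0.777%, 0.675%, 0.657% and 0.641% in oxaliplatin replicates 1 to 5. After vehicle they made up 0.896%, 0.846%, 0.954%, 0.981% and 0.906%. Every oxaliplatin library had a smaller share of its reads in these genes than any vehicle library.

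Nefl (ENSMUSG00000022055) codes for the light chain, the core on which the other chains assemble. Its level was 2590, 3542, 2887, 2851 and 2890 CPM in oxaliplatin replicates 1 to 5. In vehicle replicates 1 to 5 it was 4014, 4020, 4243, 4574 and 4208 CPM. The groups lay 473 CPM apart at their nearest, between oxaliplatin replicate 2 and vehicle replicate 1, and the other oxaliplatin libraries lay lower still. The means were 2952 ± 352 and 4212 ± 228 CPM (SD, n = 5 and 5), a log2 fold change of -0.51 ± 0.07 (SE; edgeR adjusted p = 0.00215). Nefl ranked 23rd of the 18401 tested genes by mean CPM, which places it among the most abundant messages of the tissue.

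Nefm (ENSMUSG00000022054) codes for the medium chain, whose tail reaches out from the filament and carries phosphate groups. It stood at 2239, 3054, 2622, 2448 and 2341 CPM in oxaliplatin replicates 1 to 5. After vehicle it stood at 3672, 3235, 4239, 4042 and 3809 CPM. Replicate 2 was the highest oxaliplatin library and also the lowest vehicle library, and these lay 181 CPM apart. The means were 2541 ± 320 and 3799 ± 383 CPM (SD, n = 5 and 5), at a log2 fold change of -0.58 ± 0.09 (edgeR adjusted p = 0.00557). In the GENCODE M21 gene models, 1 of 2 Nefm transcripts reaches across Nefl, its neighbour on the opposite strand of chromosome 14, and shares 1108 bases with the exons of Nefl. The sources used here do not say whether the authors counted by strand, and without that reads from that stretch cannot be told apart.

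Nefh (ENSMUSG00000020396) codes for the heavy chain, a widely used marker of large sensory neurons, whose long tail holds repeated phosphorylation sites. The 5 oxaliplatin libraries held 296, 361, 379, 316 and 256 CPM, in replicate order. The vehicle libraries held 510, 381, 598, 554 and 452 CPM. The groups did not overlap, but oxaliplatin replicate 3 and vehicle replicate 2 were only 1.77 CPM apart. The means were 322 ± 49.6 and 499 ± 85.4 CPM (SD, n = 5 and 5), a log2 fold change of -0.63 ± 0.13 (edgeR adjusted p = 0.0400). Nefh thus had the largest fitted fall of the 3 chains and the widest 95% interval, from 0.525-fold to 0.792-fold, against 0.632-fold to 0.778-fold for Nefl.

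**Figure D1:**
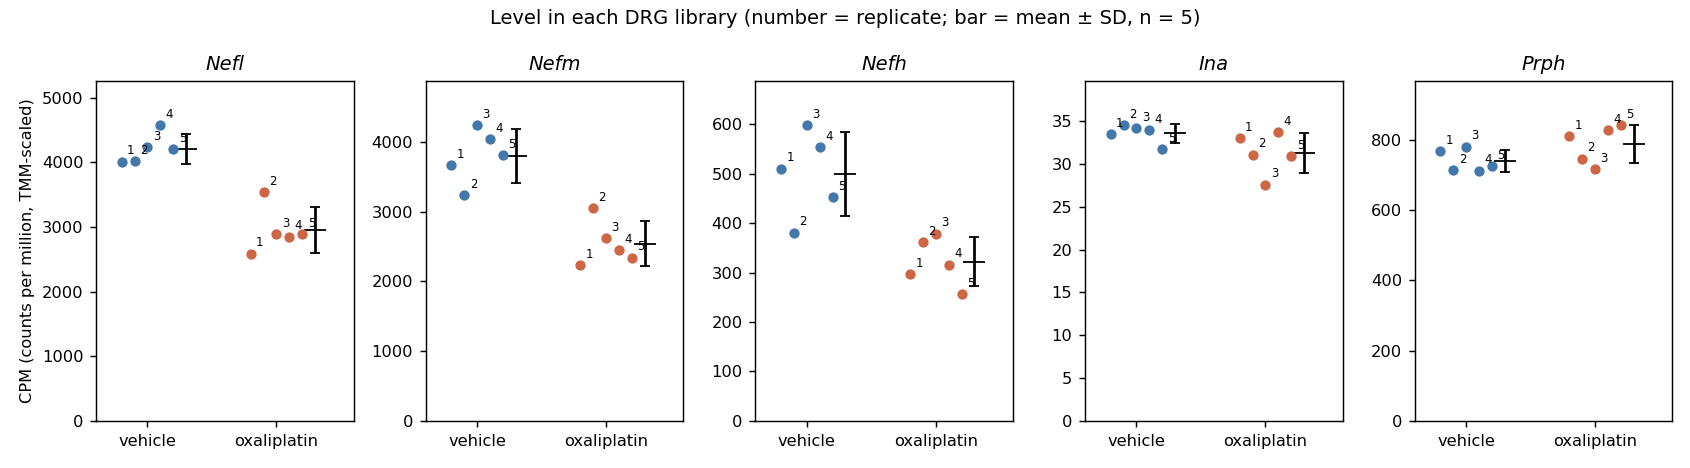
Level of each gene in every library, in CPM on axes that start at 0, with the replicate number beside each point and the mean ± SD (n = 5) as a bar. For Nefl, Nefm and Nefh the 5 oxaliplatin libraries lie below the 5 vehicle libraries, by 1.77 CPM at the nearest for Nefh, while the groups overlap for Ina and Prph.

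The calls of Nefl and Nefm held whichever library was left out, at adjusted p values up to 0.0170 and 0.0263. Nefh kept its call in 3 of 10 such fits, those without oxaliplatin replicate 2 or 3 or vehicle replicate 2. It lost the call without oxaliplatin replicate 1 (edgeR adjusted p = 0.0840), 4 (0.0910) or 5 (0.0688) and without vehicle replicate 1 (0.0809), 3 (0.0647), 4 (0.0924) or 5 (0.0719), at log2 fold changes from -0.71 to -0.56 over all 10 fits. Without oxaliplatin replicate 1, which held fat and muscle RNA, and vehicle replicate 5, which held injury transcripts, Nefl was at -0.47 and Nefm at -0.54 (edgeR adjusted p = 0.00695 and 0.0206). Nefh was at -0.64 in that fit, also added after the values were seen, with an edgeR adjusted p of 0.149.

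Prph (ENSMUSG00000023484) codes for peripherin, a filament protein of peripheral neurons that is known to rise in some of them after axon injury. Its level was 812, 747, 716, 828 and 841 CPM in oxaliplatin replicates 1 to 5 and 768, 714, 781, 713 and 725 CPM in the vehicle libraries. Of the oxaliplatin libraries 3 lay above every vehicle library, and replicates 2 and 3 lay within the vehicle range. The means were 789 ± 54.5 and 740 ± 32.2 CPM (SD, n = 5 and 5), at a log2 fold change of 0.09 ± 0.06 that did not pass the test (edgeR adjusted p = 0.456). The 95% interval ran from 0.981-fold to 1.16-fold.

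Ina (ENSMUSG00000034336) codes for alpha-internexin, best known as a filament protein of developing and central neurons. It was the least abundant of the 5, at 33.0, 31.1, 27.6, 33.7 and 30.9 CPM in oxaliplatin replicates 1 to 5. The vehicle libraries held 33.5, 34.5, 34.2, 34.0 and 31.7 CPM. Oxaliplatin replicates 2, 3 and 5 lay below every vehicle library, and replicates 1 and 4 within the vehicle range. The means were 31.3 ± 2.37 and 33.6 ± 1.11 CPM (SD, n = 5 and 5), with a log2 fold change of -0.10 ± 0.07 (edgeR adjusted p = 0.527) and a 95% interval from 0.837-fold to 1.04-fold. Ina shares 456 exon bases with Nt5c2 on the opposite strand in the GENCODE M21 models. In each of 24 other fits neither Ina nor Prph passed the threshold, and their signs did not change.

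**Figure D2:**
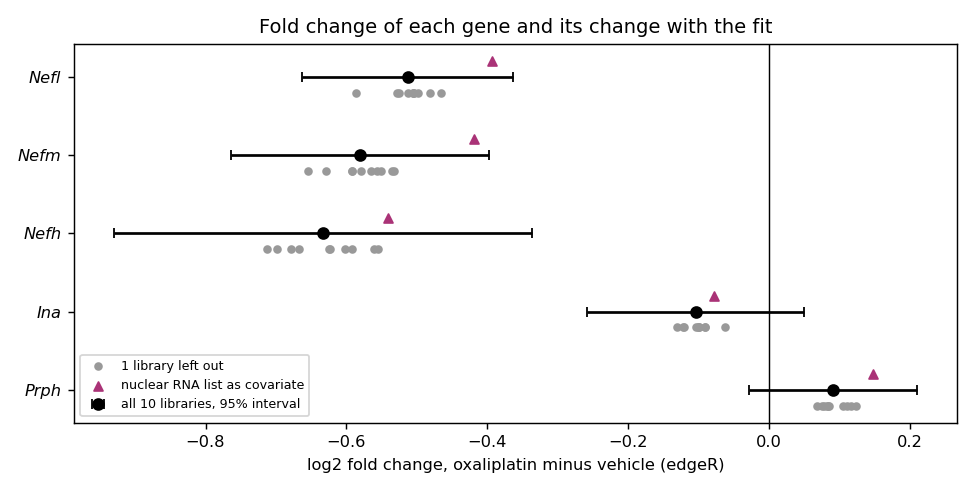
Log2 fold change of each gene (oxaliplatin minus vehicle) from the fit of all 10 libraries with its 95% interval (black), from the 10 fits that leave out 1 library (grey), and with the mean of the nuclear RNA list as a covariate (triangles). The intervals of Nefl, Nefm and Nefh lie below 0 and those of Ina and Prph span it, and the triangles of the 3 chains lie nearer to 0 than the black points.

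The start regions of the 2 genes that were not called are shown because the RefSeq promoter table held entries for them, Prph and Ina, and not for Nefl, Nefm or Nefh. Each line gives the 100 bases before the transcription start, 5′ to 3′ on the plus strand of GRCm38.p6, at chr15:99055074-99055173 for Prph and chr19:47014581-47014680 for Ina, with the letters TATAAA, the core of a TATA box, in capitals.
Prph: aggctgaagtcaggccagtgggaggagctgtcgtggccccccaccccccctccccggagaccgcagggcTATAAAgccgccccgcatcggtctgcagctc
Ina: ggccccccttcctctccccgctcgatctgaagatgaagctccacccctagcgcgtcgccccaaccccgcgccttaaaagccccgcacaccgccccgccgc
The window of Prph holds TATAAA once, starting 31 bases before the transcription start, and that of Ina holds it on neither strand. Searched on both strands, 5.56% of the 32851 windows of this length in the table hold these letters. The GC content was 70.0% for Prph and 71.0% for Ina, beside a median of 55.0% over all windows. A match of letters is a description and does not show that a factor binds there.

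Because the scaling of a library cancels in a ratio of 2 of its genes, the ratio of each gene to Nefl was compared between the groups. These 4 ratios share Nefl, so they are not independent of each other. The log2 fold change of Nefl was -0.51, without overlap, beside 0.09 for Prph and -0.10 for Ina. The ratios of Prph and Ina therefore largely restate the fall of Nefl, and their p-values are not separate support. Prph rose relative to Nefl. Its log2 ratio was -1.67, -2.25, -2.01, -1.79 and -1.78 in oxaliplatin replicates 1 to 5 and -2.39, -2.49, -2.44, -2.68 and -2.54 after vehicle. No oxaliplatin library reached down to the vehicle range, and replicate 2 was the nearest to it. The mean difference was 0.61 ± 0.11 (SE), a 1.52-fold higher ratio (two-sided exact permutation test, p = 0.00794, the smallest that 5 against 5 libraries allow, and 0.0159 adjusted over the 4 ratios). In counts, Prph amounted to 17.6% of Nefl after vehicle and to 26.8% after oxaliplatin, as geometric means.

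Ina rose relative to Nefl as well. Its log2 ratio was -6.29, -6.83, -6.71, -6.40 and -6.54 after oxaliplatin and -6.90, -6.86, -6.95, -7.07 and -7.05 after vehicle, in replicate order. The groups did not overlap, though oxaliplatin replicate 2 lay close to vehicle replicate 2. The mean difference was 0.41 ± 0.11 (SE; two-sided exact permutation test, p = 0.00794, and 0.0159 adjusted over the 4 ratios). With 1 library left out the differences ranged from 0.55 to 0.70 for Prph and from 0.35 to 0.48 for Ina.

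For the other 2 chains no difference in the ratio passed the test. The log2 ratio of Nefm to Nefl was -0.22 ± 0.06 after oxaliplatin and -0.15 ± 0.11 after vehicle (SD, n = 5 and 5), and the groups overlapped. Its difference of -0.06 ± 0.06 (SE) had an adjusted p of 0.391 (two-sided exact permutation test). The log2 ratio of Nefh to Nefl was -3.20 ± 0.21 and -3.09 ± 0.22, and its difference of -0.11 ± 0.14 had an adjusted p of 0.437 in the exact permutation test. A p of this size does not show that the 3 chains fell by the same amount. The lowest ratios of Nefh to Nefl were those of oxaliplatin replicate 5 (-3.50) and vehicle replicate 2 (-3.40), so the spread within a group was larger than the difference between the groups.

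**Figure D3:**
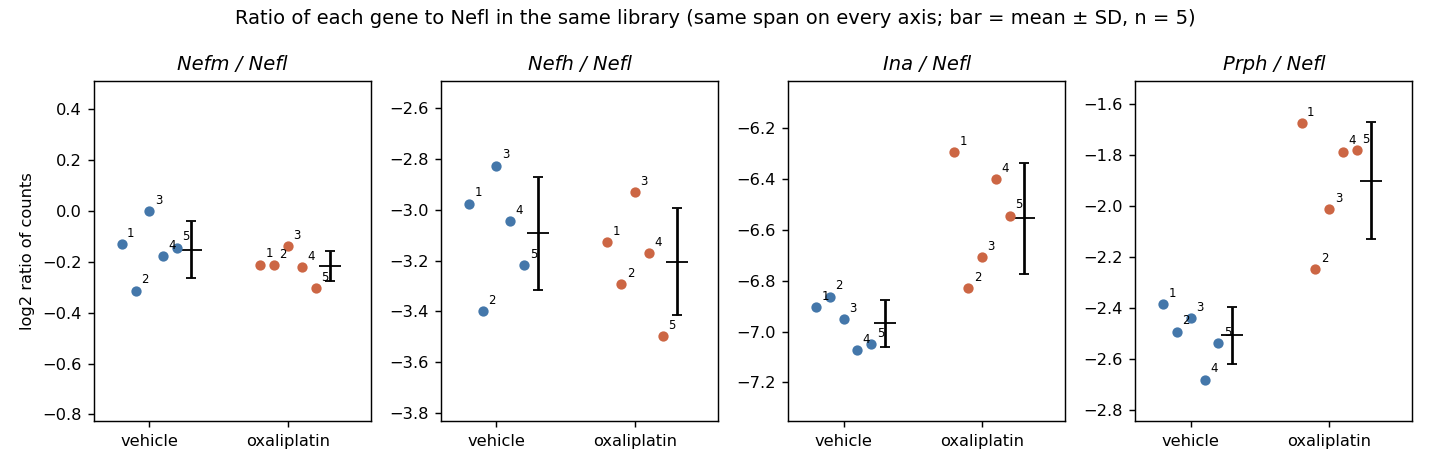
Log2 ratio of the counts of each gene to those of Nefl in the same library, with the replicate number beside each point and the mean ± SD (n = 5) as a bar; every axis spans the same range. The oxaliplatin libraries lie above the vehicle libraries for Ina and Prph and overlap them for Nefm and Nefh.

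Levels of different genes were compared per kilobase of exon (CPM per kb, with the union of exons in GENCODE M21). After vehicle the order was Nefl at 1246 ± 67.5, Nefm at 657 ± 66.2, Prph at 370 ± 16.1, Nefh at 125 ± 21.4 and Ina at 10.4 ± 0.341 CPM per kb (SD, n = 5). No neighbours in that order overlapped between libraries. After oxaliplatin the order of the means was the same, at 873 ± 104, 439 ± 55.4, 394 ± 27.3, 80.5 ± 12.4 and 9.65 ± 0.733 CPM per kb. There Nefm (387 to 528) and Prph (358 to 421) overlapped in level per kb. With only the 4674 Nefm bases outside the exons of Nefl as its length, Nefm stood at 479 to 653 CPM per kb after oxaliplatin. At that length it did not overlap Prph. All counted Nefm reads were kept in this value, so it is too high if reads from the shared stretch were counted. The length of Nefl was not shortened in the same way.

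Within the groups the chains also varied together from library to library. The deviations of log2 CPM from the group means had a Pearson correlation of 0.84 between Nefl and Nefm, 0.82 between Nefm and Nefh and 0.46 between Nefl and Nefh over the 10 libraries. The same measure was 0.63 between Ina and Prph and between -0.42 and -0.18 for each of these with a chain. These points share a library and its scaling, and they are given as a description. The genes whose log2 CPM followed the mean of the 3 chains most closely over the 10 libraries, among 8953 other genes with a mean of at least 10 CPM, were Fgf9, Nqo2, Nrn1, Luzp1 and Hspd1. Fgf9, a growth factor, had a correlation of 0.98 with that mean (0.91 for the deviations within groups), and Nrn1, which codes for the neurite-promoting protein neuritin, one of 0.97 (0.87). Hspd1, the chaperonin of mitochondria, reached 0.97 (0.90), Nqo2, a quinone reductase, 0.97 (0.88) and Luzp1 0.97 (0.85). Because that mean separates the groups, the choice of these genes fixes their direction, and no test of it is given. For Prph the closest genes were Ndufv1, a subunit of respiratory complex I (0.95), the kinase gene Map2k5 (0.95) and the elongation factor gene Tcea2 (0.94). For Ina they were Cyp2j12 (0.91), the tau kinase gene Ttbk1 (0.87) and Olfm1 (0.86).

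Of 73 tested genes in 6 lists that build, move, modify, control or clear neurofilaments, or code for other filaments, 1 was called (1.37%), beside 2.04% of all genes, a share near the background. The medians of the lists are read beside a median log2 fold change of 0.01 over all tested genes. Of 13 tested linkers, microtubule-associated proteins and membrane scaffold genes that meet neurofilaments in axons, 0 passed the edgeR test (1 at an unadjusted p below 0.05, and 0 by DESeq2 and by limma voom), at a median of 0.00. Mapt, which codes for the microtubule protein tau, stood at 293 ± 19.0 CPM after oxaliplatin and 331 ± 29.1 CPM after vehicle (edgeR adjusted p = 0.194). Of 9 motor genes, 0 passed by edgeR, DESeq2 or limma voom (1 at an unadjusted p below 0.05), at a median of 0.02. The gene at an unadjusted p below 0.05 was the dynein gene Dync1i1, on the lower side (-0.15 ± 0.05, edgeR adjusted p = 0.168). Kif5a, a kinesin that carries neurofilaments along axons, was at 0.19 ± 0.12 (edgeR adjusted p = 0.465). Of the 9 motor genes 4 lay below 0. Of 8 tested intermediate filament genes of other cells, 0 passed by edgeR, DESeq2 or limma voom (1 at an unadjusted p below 0.05), at a median of -0.05. Synm, which codes for synemin, stood at 117 ± 6.83 and 131 ± 13.3 CPM.

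Phosphorylation of the tails spaces neurofilaments apart and slows them. Of 21 kinase, phosphatase and prolyl isomerase genes, 0 passed the edgeR test (6 at an unadjusted p below 0.05, 1 by DESeq2 and 0 by limma voom), at a median of -0.02. Mapk8, which codes for the stress kinase JNK1, was at 0.34 ± 0.09 (edgeR adjusted p = 0.0672). Among 10 genes for turnover and chaperones 1 fell and 0 rose, at a median of -0.10. That gene was Bag3, a co-chaperone that hands damaged filament proteins to autophagy, which went from 264 ± 26.6 to 198 ± 10.1 CPM (-0.41 ± 0.07, edgeR adjusted p = 0.00821), past the threshold in 10 of 10 fits without 1 library. Its partner Hspb8 stood at 244 ± 13.9 and 263 ± 25.6 CPM after oxaliplatin and vehicle (edgeR adjusted p = 0.461), and Trim2, a ubiquitin ligase that acts on the light chain, at 211 ± 14.1 and 227 ± 22.4 CPM (edgeR adjusted p = 0.504). Of 12 RNA-binding proteins and transcription factors tied to neurofilament genes, 0 passed by edgeR, DESeq2 or limma voom (3 at an unadjusted p below 0.05), at a median of -0.02. Elavl4, which codes for the neuronal RNA-binding protein HuD, was at -0.15 ± 0.06 (edgeR adjusted p = 0.247).

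**Figure D4:**
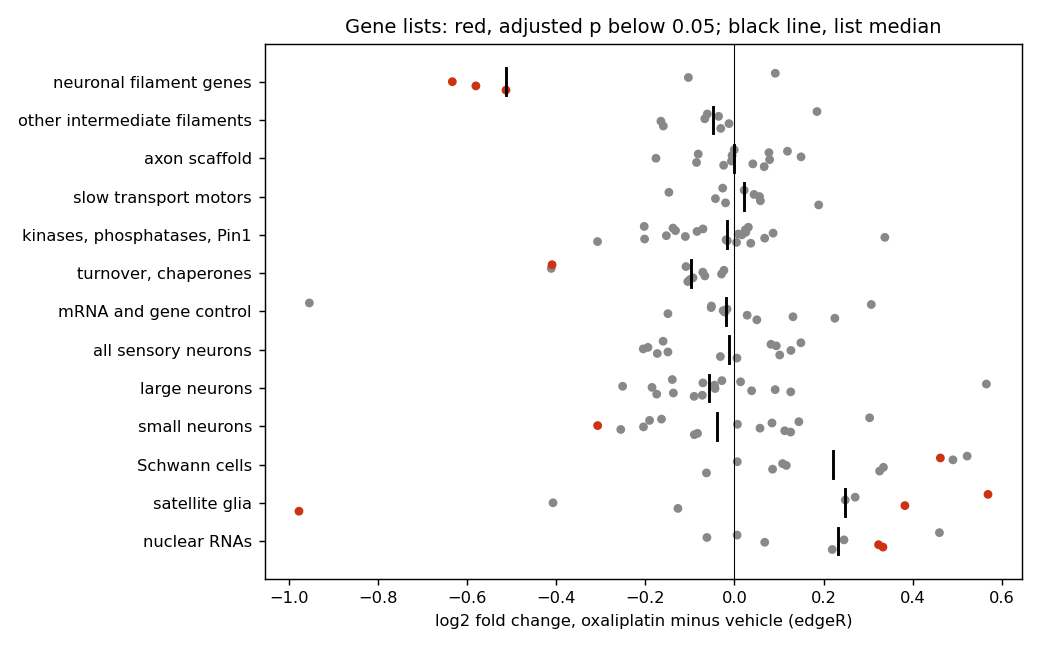
Log2 fold change (oxaliplatin minus vehicle) of each tested gene by list, with genes past an adjusted p of 0.05 in red and the list median as a black line. The 3 neurofilament chains lie between -0.63 and -0.51, and Bag3, the called gene of the turnover list, at -0.41.

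Neurons as a whole were followed by their markers. Of 12 markers of all sensory neurons, 0 passed by edgeR or DESeq2 and 1 by limma voom (6 at an unadjusted p below 0.05), at a median of -0.01. Of these 6, Tubb3, Stmn2, Elavl3, Elavl4 and Thy1 were on the lower side and Eno2 on the higher. Tubb3, the neuronal tubulin, stood at 8167 ± 627 CPM after oxaliplatin and 9412 ± 729 CPM after vehicle (-0.20 ± 0.06, edgeR adjusted p = 0.113). Stmn2, a microtubule regulator of growing axons, was at -0.19 ± 0.06 (edgeR adjusted p = 0.0919). Elavl3 (-0.17 ± 0.06) and Thy1 (-0.16 ± 0.06) lay lower without overlap between the groups and did not pass (edgeR adjusted p = 0.149 and 0.188). That was 2 of the 12 markers, beside 1.77% of all genes and 3.43% of those at 30 CPM or more. Eno2, the neuronal enolase, was at 0.13 ± 0.06 (edgeR adjusted p = 0.304). With the mean of this list as a covariate, Nefl was at -0.54 (edgeR adjusted p = 0.00156), Nefm at -0.59 (0.00757) and Nefh at -0.58, where it lost its call (0.0707). Of 16 markers of large myelinated neurons, 0 passed by edgeR and 1 each by DESeq2 and limma voom (2 at an unadjusted p below 0.05), at a median of -0.06. Their summed level was 2411 to 2817 CPM after oxaliplatin and 2267 to 3011 CPM after vehicle. With their mean as a covariate, a fit added after the values were seen, Nefl, Nefm and Nefh were at -0.51, -0.57 and -0.60 (edgeR adjusted p = 0.00295, 0.00550 and 0.00530). Among 14 markers of small neurons 1 fell and 0 rose, at a median of -0.04, beside 0.772% of all genes called lower. Of the 14, 2 had an unadjusted p below 0.05, 1 passed by DESeq2 and 1 by limma voom. The ATP-gated channel gene P2rx3 was the one that fell (-0.31 ± 0.07, edgeR adjusted p = 0.0314), and it kept its call in 3 of the 10 fits without 1 library.

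Spinal motor neurons are also rich in neurofilament chains and peripherin. Chat, which codes for the enzyme that makes acetylcholine, had 0 to 16 counts in the oxaliplatin libraries and 0 to 2 in the vehicle ones, and the transcription factor gene Mnx1 had 0 to 2 in each group. The acetylcholine carrier gene Slc18a3 had 0 to 25 and 0 to 17 counts, and the choline transporter gene Slc5a7 had 142 to 220 and 111 to 214. Of 10 motor neuron and spinal cord markers 3 had enough counts to be tested. Of these, 0 passed by edgeR or limma voom and 1 by DESeq2 (2 at an unadjusted p below 0.05). Those 2, Mog (1.53 ± 0.54, edgeR adjusted p = 0.162) and Aqp4 (0.41 ± 0.11, edgeR adjusted p = 0.0662), were on the higher side. The summed level of the 3 was 12.9 to 16.4 CPM after oxaliplatin and 10.5 to 13.2 CPM after vehicle. The mean log2 CPM of these 3 markers was 1.16 to 1.91 and 0.194 to 1.05, without overlap between the groups. Their part in the values of the chains was not tested.

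Other measures moved in the same libraries, and their part in the fall of the chains was not tested. Fits with a list mean as a covariate show how the fold changes moved. They cannot separate such a measure from the treatment. RNAs kept in the nucleus had 2 of 8 members higher and 0 lower, Neat1 (0.33 ± 0.07, edgeR adjusted p = 0.0256) and Meg3 (0.32 ± 0.08, edgeR adjusted p = 0.0492), which kept their calls in 6 and 2 of the 10 fits without 1 library. Of the 8 members 5 had an unadjusted p below 0.05, 3 passed by DESeq2 and 3 by limma voom. Over all genes 1.27% were called higher by edgeR. The summed level of the list was 8944 to 11430 CPM after oxaliplatin and 7868 to 8809 CPM after vehicle, without overlap. Its mean log2 CPM, which served as the covariate, did overlap between the groups. With the mean of this list as a covariate, Nefl was at -0.39, Nefm at -0.42 and Nefh at -0.54, and none of them passed (edgeR adjusted p = 0.128, 0.195 and 0.492). In that fit 11 genes were higher and 6 lower over all genes. Of 10 Schwann cell markers 1 rose, Cnp, an enzyme of myelin (0.46 ± 0.08, edgeR adjusted p = 0.0117). The list median was 0.22, at a summed level of 9394 to 12410 and 8451 to 11410 CPM. Of the 10 markers 4 had an unadjusted p below 0.05, 2 passed by DESeq2 and 2 by limma voom. With their mean as a covariate, Nefl and Nefm were at -0.59 and -0.65 (edgeR adjusted p = 0.00548 and 0.0128), and Nefh was at -0.59 and lost its call (0.125).

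Among 7 satellite glia markers Aldoc (0.57 ± 0.12) and Glul (0.38 ± 0.08) rose and Fabp7 (-0.98 ± 0.18) fell (edgeR adjusted p = 0.0298, 0.0223 and 0.0298), at a summed level of 3638 to 4621 and 3881 to 5642 CPM. They kept their calls in 3, 6 and 3 of the 10 fits without 1 library. Of the 7 markers 6 had an unadjusted p below 0.05, 4 passed by DESeq2 and 3 by limma voom. Over all genes 1.27% were called higher and 0.772% lower by edgeR. Of 11 fibroblast and vessel markers 3 rose (6 at an unadjusted p below 0.05, 4 by DESeq2 and 5 by limma voom). Their summed level was 1100 to 1270 CPM after oxaliplatin and 863 to 1099 CPM after vehicle. The 3 were Pecam1, Cdh5 and Pdgfra, with calls kept in 9, 3 and 3 of the 10 fits without 1 library. Of 8 macrophage markers 1 fell, Cx3cr1 (called in 8 of 10 such fits), at 46.7 to 64.9 and 45.4 to 83.3 CPM for the sum. Of these 8, 3 had an unadjusted p below 0.05, 3 passed by DESeq2 and 1 by limma voom. Muscle markers summed to 13.4 to 709.5 CPM after oxaliplatin and 100.5 to 483 CPM after vehicle (0 of 6 past the edgeR test, 0 at an unadjusted p below 0.05, 0 by DESeq2 and 3 by limma voom). Fat cell markers summed to 16.0 to 671 and 7.91 to 33.7 CPM (0 of 4 past the edgeR test, 2 at an unadjusted p below 0.05, 0 by DESeq2 or limma voom).

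Axon injury is an event after which neurofilament messages are known to fall. Of 15 tested genes known to be switched on by it, 14 lay on the lower side, at a median of -0.54. Over all genes 9010 of 18401 lay on that side. None passed the edgeR test (0 of 15, 7 at an unadjusted p below 0.05, 2 by DESeq2 and 1 by limma voom). Their summed level was 789.5 to 1032 CPM after oxaliplatin and 931 to 2398 CPM after vehicle. Their mean log2 CPM was 3.45 to 4.19 after oxaliplatin. After vehicle it was 4.02 to 4.65 in replicates 1 to 4 and 6.27 in replicate 5, which is included in the median. The transcription factor gene Atf3 stood at 8.32 to 13.7 CPM after oxaliplatin, and after vehicle at 12.1 to 32.4 CPM in replicates 1 to 4 and at 176 CPM in replicate 5. Sprr1a, a gene of regrowing axons, stood at 0.137 to 1.25 CPM after oxaliplatin. After vehicle it stood at 1.29 to 11.6 CPM in replicates 1 to 4 and at 189 CPM in replicate 5. It lay lower without overlap, as did 1.77% of all genes, and did not pass (edgeR adjusted p = 0.1245). In vehicle replicate 5 the 3 chains were at 4208, 3809 and 452 CPM, within the range of the other vehicle libraries.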

How the data were processed

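RNA sequencing of DRG was analysed from 1 deposited table of raw read counts per Ensembl gene, whole numbers with 1 column for each of 10 libraries, which the titles group. The submitters' processing notes list STAR (2.5.1a), Partek and DESeq2 without their roles; build, annotation and counting step are unstated in the sources used here. Of 40757 rows, 276 repeats of an ID were dropped, and 26 symbols stored as dates were restored.

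All genes were tested with edgeR 4.0.16 (R 4.3.3) by a robust quasi-likelihood fit after filterByExpr and TMM scaling, with Benjamini-Hochberg adjustment and a threshold of 0.05. SE was taken as the fold change (log2) over the square root of F. Log2 CPM values and ratios use a prior count of 2. Lists have no set test. The values of 1 list gene are not reported here. The naming rule took the 5 members, list genes past the threshold, up to 3 others of smallest p per list and the closest genes by correlation. Eno2, Thy1, Chat, Mnx1, Slc18a3 and Slc5a7 were added to the named genes with their values in view. Members and lists were chosen with earlier results of these data known.

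Counts were simulated for the oxaliplatin and vehicle comparison (18243 genes). The test found 24% of the 50 genes set to 0.7-fold and 38% of the 50 set to 1.5-fold. It found 100% of those set to 2-fold and to 4-fold, and 10 of its 141 calls were false. Every gene was simulated with the same biological coefficient of variation (19%), and the changed genes were drawn over a wide range of levels. These shares are therefore not the power for the 3 chains. Alternatives were RLE or no composition factor, no or a stricter filter (1 CPM in 5 libraries), DESeq2 1.42.0, limma 3.58.1 voom with quality weights, a replicate block, 1 surrogate variable (sva 3.50.0), list means as covariates, and each library left out; for ratios, prior counts of 0 and 20 and limma. Promoters come from the RefSeq table of GRCm38.p6, and lengths from GENCODE M21.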

Additional observations from a re-analysis of the deposited data

How the results depend on the processing

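The direction of all 5 fold changes held in 24 alternatives each, over -0.60 to -0.39 for Nefl, -0.71 to -0.42 for Nefm, -0.76 to -0.54 for Nefh, -0.15 to -0.06 for Ina and 0.06 to 0.15 for Prph. Nefl and Nefm lost their calls in 1 of 24, with the nuclear RNA covariate (-0.39 and -0.42). Nefh lost its call with no filter (-0.63), 1 surrogate variable (-0.55), the covariates of all neurons (-0.58), Schwann cells (-0.59) and nuclear RNA (-0.54), and without oxaliplatin replicate 1 and vehicle replicate 5 (-0.64); with 1 library left out it ranged from -0.71 to -0.56, and 3 of 10 such fits kept the call. The cause was not tested. Ratios of Prph and Ina to Nefl were 0.61 and 0.41 under the replicate block, where 5 pairs allow no p below 0.0625 (adjusted p = 0.125 in the exact permutation test), and kept their calls with prior counts of 0 and 20 and in limma. With 1 library left out they ranged from 0.55 to 0.70 and from 0.35 to 0.48, where groups that do not overlap give the smallest p such a test allows (0.0317 adjusted), which says nothing about stability. Ratios of Nefm and Nefh missed the threshold in all 14 alternatives. With 1 library left out, 79 to 343 genes were higher and 34 to 251 lower. Higher and lower genes were 516 and 406 in DESeq2, 439 and 342 in limma voom, 382 and 278 with the replicate block, 77 and 36 with 1 surrogate variable, 408 and 410 with the Schwann cell covariate, 11 and 6 with the nuclear RNA covariate, and 142 and 76 without oxaliplatin replicate 1 and vehicle replicate 5. They were 320 and 278 with the covariate of all neurons, 313 and 222 with that of large neurons and 349 and 322 without replicate 2 of both groups. Replicate 2 was left out because it lay nearest to the other group. That held in both groups for Nefm, only in oxaliplatin for Nefl and only in vehicle for Nefh. Larger falls in that fit (to -0.60, -0.71 and -0.76 for Nefl, Nefm and Nefh) follow from the choice. Same-numbered libraries correlated in their deviations from the group means at 0.175, -0.0822, 0.477, -0.0760 and 0.353. Of the 5 oxaliplatin libraries 3 correlated best with the vehicle library of their own number. These values do not settle whether the numbers mark pairs. The labels only number the libraries, so the main fit did not pair them. Under the block Nefl, Nefm and Nefh were at -0.52, -0.58 and -0.63 and kept their calls. None of 20 sets of 5 values held a library that stood apart by Dixon's test.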
